A study of Mus musculus with 2 samples.

Results

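Type I interferon response genes are the genes that cells switch on after interferon alpha or beta binds its receptor. The receptor pair Ifnar1 and Ifnar2 signals through the kinases Jak1 and Tyk2 to a complex that holds Stat2 and Irf9 and binds a short promoter element, the interferon-stimulated response element (ISRE). The products restrict viral replication, sense foreign RNA and DNA, and feed back on the pathway, and many leukocytes keep a low tonic level of them without infection. In the liver, Kupffer cells, monocytes and plasmacytoid dendritic cells (pDC) are known for their part in interferon responses.

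A list of 34 such genes was followed by symbol in single-cell RNA-seq counts of mononuclear cells from mouse liver, and 33 of the 34 were matched among the 28692 genes of the files; Mx2 was not analysed here. The genes include 3 IFIT genes, 3 genes of the Isg15 ubiquitin-like modifier system, 5 oligoadenylate synthetase (OAS) genes, 3 transcription factors and 4 nucleic acid sensors, and the rest are other effectors. Unique molecular identifiers (UMIs, which count captured RNA molecules) were compared between 2 libraries, each pooling cells from 3 C57BL/6 mice and collected on day 14. The control library came from mice given PBS into the spleen and is labelled as without tumor. The MC38 library came from mice injected in the spleen with 500000 cells of MC38, a murine colon cancer line that seeds the liver from there. The protocol given for both samples also describes removal of the spleen and 3000000 MC38 cells under the skin, and the titles carry "SC" for both, so the sources used here leave unsaid whether control mice had a subcutaneous tumor or kept the spleen. With 1 library per group there is no test between conditions, and intervals cover counting error only.

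The control library had 14258 barcodes and the MC38 library 19822, with a median of 5470.5 and 3141.5 UMIs. Cells with at most 10% mitochondrial UMIs were kept in the main comparison (3439 and 11855 cells, 24.1% and 59.8% of barcodes), and cells with at most 30% in a wider one (10163 and 17106). The libraries shared 63 barcodes, 8 of them among kept cells. Cells were put in classes by the number of detected marker genes, with at least 3 of 6 markers of the class. This gave a class to 88.7% of control and 87.6% of MC38 cells. Hepatocyte-marker cells made up 2.01% of kept control cells and 31.5% of kept MC38 cells, although the labels name immune cells. Levels are UMIs per 1000000 UMIs of a class (CPM), and a difference is the log2 ratio of MC38 to control with its exact 95% interval. A gene was counted as lower or higher where it differed by at least 1.5-fold and the interval left out no difference.

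The promoters of 5 members are shown because they hold the core letters of the response element and their genes span much of the range of differences described below. The core, GAAA followed by any 2 bases and GAAA again, was searched on both strands, overlapping matches allowed, in the RefSeq windows from 250 bases before to 50 after each start (GRCm38.p6), where 23 members had an entry. It was present in 12 of the 23 (52.2%) and in 1079 of 27025 genes with a window (3.99%). Each line gives the bases from −180 to −31 before the start, 5′ to 3′ on the gene's strand, with matches on either strand in capitals. In GRCm38.p6 the stretches are Ifit1 chr19:34640709-34640858 (plus strand), Ifit3 chr19:34583349-34583498 (plus strand), Isg15 chr4:156200849-156200998 (minus strand), Rsad2 chr12:26456483-26456632 (minus strand) and Bst2 chr8:71537503-71537652 (minus strand).
Ifit1: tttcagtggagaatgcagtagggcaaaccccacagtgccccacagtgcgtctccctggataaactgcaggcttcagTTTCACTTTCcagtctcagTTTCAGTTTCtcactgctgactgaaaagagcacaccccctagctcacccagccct
Ifit3: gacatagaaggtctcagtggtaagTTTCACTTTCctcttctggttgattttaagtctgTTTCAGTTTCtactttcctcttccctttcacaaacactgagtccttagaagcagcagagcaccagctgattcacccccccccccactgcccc
Isg15: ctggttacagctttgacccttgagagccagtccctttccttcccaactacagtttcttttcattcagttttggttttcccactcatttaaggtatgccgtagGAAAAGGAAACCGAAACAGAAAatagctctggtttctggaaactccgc
Rsad2: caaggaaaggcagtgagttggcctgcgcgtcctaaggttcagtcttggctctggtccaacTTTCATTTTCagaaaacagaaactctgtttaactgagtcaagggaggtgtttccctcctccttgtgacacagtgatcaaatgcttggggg
Bst2: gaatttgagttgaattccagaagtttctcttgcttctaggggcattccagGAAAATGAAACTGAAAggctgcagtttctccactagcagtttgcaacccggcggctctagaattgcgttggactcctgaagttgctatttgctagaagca
Ifit1 and Ifit3 held 2 separate copies on the opposite strand, Isg15 3 overlapping copies, Rsad2 1 copy and Bst2 2 overlapping copies. The 12 members with the core had a median log2 difference of −2.16 in classical-monocyte-like cells, and the 11 without it had −2.35 (no test). A match is a description of letters, and Irf7, Ifit2 and Cmpk2 had none in these windows.

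Classical-monocyte-like cells showed the broadest difference: all 33 members were lower in the MC38 library (572 control and 3320 MC38 cells), where 11.4% of all 12994 genes tested were lower and 9.92% higher. The median of the members was −2.35 on the log2 scale, against −0.04 over all genes tested. The summed level of the 33 genes was 4821 CPM (interval 4764 to 4879) in control and 1192 (1181 to 1202) in MC38, a ratio of 4.05. In the plot of member levels in these cells, each of the 33 pairs is ordered the same way.

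**Figure D1:**
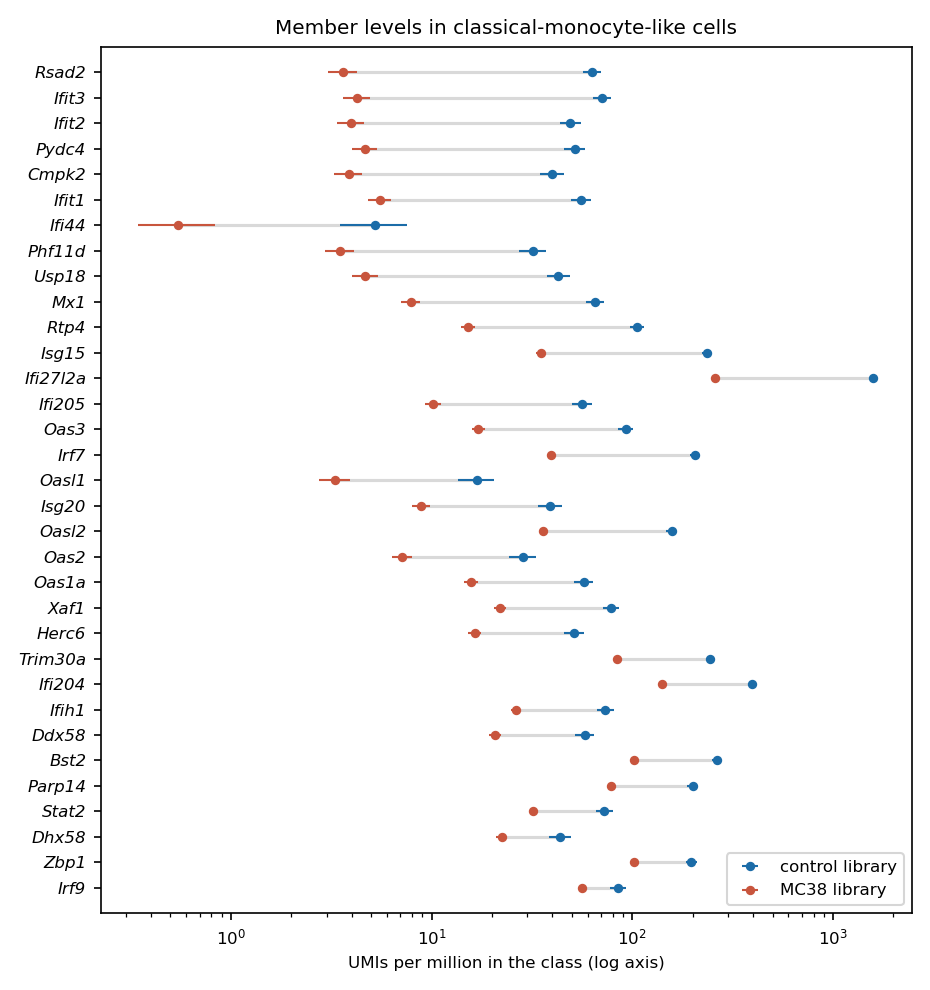
Level of each member in classical-monocyte-like cells, in CPM on a log axis, with points for the control library (blue) and the MC38 library (red) and exact 95% counting intervals as bars. Genes run from the largest log2 difference (Rsad2, −4.13) to the smallest (Irf9, −0.59), and every control point lies to the right of its MC38 point.

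Rsad2, Ifit3 and Ifit2, which encode antiviral effectors, had the largest differences. Rsad2 (viperin, which makes a chain-terminating nucleotide) was at 63.1 CPM in control and 3.62 in MC38, a log2 difference of −4.13 (−4.41 to −3.84). Its neighbour on chromosome 12, Cmpk2, a nucleotide kinase, was at 40 and 3.87 CPM (−3.37). The IFIT genes, whose products bind viral RNA, lie together on chromosome 19: Ifit3 was at 70.7 and 4.24 CPM (−4.06, −4.33 to −3.80). Ifit2 was at 49.2 and 3.97 CPM (−3.63) and Ifit1 at 55.7 and 5.51 CPM (−3.34). All 5 were at 5.51 CPM or below in the MC38 library and at 40 CPM or above in control.

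The Isg15 system conjugates a small ubiquitin-like protein to others, and Usp18 removes it and dampens receptor signalling. Isg15 was at 236 and 35 CPM (−2.75, −2.86 to −2.64), Usp18 at 42.9 and 4.69 (−3.19) and Herc6, the mouse ligase for Isg15, at 51.4 and 16.4 (−1.64). Mx1, of the dynamin-like GTPases, was at 65.5 and 7.88 CPM (−3.05). Pydc4 and Ifi205, of the pyrin-domain and p200 genes on chromosome 1, were at −3.48 and −2.46, and their neighbour Ifi204 at 397 and 140 CPM (−1.50).

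The OAS genes, whose enzymes activate RNase L, spanned −2.44 (Oas3) to −1.87 (Oas1a). Oasl2, an OAS-like relative with the most UMIs of the 5, was at 157 and 36.1 CPM (−2.12). Ifi27l2a, a small hydrophobic protein and the member with most UMIs, was at 1588 and 258 CPM (−2.62). Bst2 (tetherin, which holds budding virions at the cell surface) was at 263 and 102 CPM (−1.36), and Rtp4 at 106 and 15.2 (−2.81).

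The transcription factors and nucleic acid sensors had medians of −1.17 and −1.22 in these cells. Irf9 was at 84.6 and 56 CPM (−0.59, −0.74 to −0.45), 1.51-fold and so just past the 1.5-fold limit, and at the 30% mitochondrial limit it was the 1 member not counted. Stat2 was at 72.7 and 32.2 CPM (−1.17). Irf7, the factor that amplifies interferon gene transcription, stood apart from these at 205 and 39.3 CPM (−2.38). The sensors Dhx58 (Lgp2), Ddx58 (RIG-I) and Ifih1 (Mda5) were at −0.97, −1.47 and −1.48, and Zbp1, a sensor of Z-form nucleic acids, at 197 and 102 CPM (−0.94).

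Other genes of the pathway were taken from lists of known members. Of 54 further type I response genes, 51 had at least 10 UMIs in these cells, 37 were lower and 2 were higher (median −1.21). Cxcl10, a chemokine for Cxcr3-bearing lymphocytes, was at 455 and 58.3 CPM (−2.96, −3.04 to −2.88), Ifit3b at 12.1 and 1.02 (−3.56) and Phf11a at 17.3 and 1.72 (−3.33). Ifi27 was higher in MC38, at 22.2 and 47 CPM (1.08), as was Gm4951, at 1.44 and 3.39 (1.23, 0.21 to 2.47).

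The genes of the receptor and its kinases differed little. Ifnar1 (−0.36), Ifnar2 (−0.26), Jak1 (−0.18) and Tyk2 (−0.30) were each within 1.5-fold. Of 12 inducers of interferon 3 were lower and none higher, with the DNA sensor Mb21d1 (cGAS) at −1.44 and the endosomal receptors Tlr7 at −0.88 and Tlr9 at −1.32 (−2.40 to −0.12, on 10 and 29 UMIs, named after its values were seen). Of 5 negative regulators Socs1 (−1.17) and Pias1 (−0.80) were lower. The interferons themselves were almost undetected: over 19 ligand genes the kept cells held 1 control and 9 MC38 UMIs. Those were 3 of Ifnb1, all in MC38, and 1 and 6 of Ifnk.

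A list of GTPases and targets best known for interferon gamma differed less in the same cells. Of 17 genes with at least 10 UMIs 7 were lower and none higher (median −0.47), led by Tgtp2 (−2.48), Irgm1 (−1.71) and the chemokine Cxcl9 (199 and 92.8 CPM, −1.10). The difference between the lists was not tested.

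Different clusters held most of the classical-monocyte-like cells of the libraries. A cluster led by Lyz2, Serpinb10 and Gm9733 held 72.2% of the control cells, and a cluster led by Chil3, Vcan and F13a1 held 57.7% of the MC38 cells. To keep the most abundant genes from setting the sum, Ifi27l2a and Bst2 were left out of it in the following values, which cover 31 members. In a cluster present in both libraries, led by Ly6i, Clec4e and Irg1 (67 and 62 cells), the sum was 4973 CPM in control (4807 to 5145) and 2514 in MC38 (2405 to 2627). In the cluster led by F11r, C1qb and Axl (13 and 743 cells) it was 3026 (2744 to 3328) and 1002 (980.6 to 1023). Control cells were thus higher within each of these 2 clusters, and the ratio was smaller in the first. Other clusters with cells of both libraries were not compared. Markers of other cells also differed: neutrophil markers summed to 134 CPM in control and 5364 in MC38 classical-monocyte-like cells (medians of 1 and 7 UMIs per cell), macrophage markers to 128 and 793, and erythroid markers to 6.85 and 144. The sum was about as different in cells with no macrophage marker (2990 and 892 CPM) as in cells with 2 or more (2880 and 850.7). Ifit3 alone varied more with this split, at 62.7 and 12.1 CPM with no macrophage marker and 97.7 and 3.43 with 2 or more. The part of neutrophil marker RNA in the result was not tested. Cells with exactly 3 markers, the edge of the gate, were 56 of 572 and 99 of 3320.

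The same cells were split by Cxcl10, itself an interferon response gene, so the split is a description, chosen after its values were seen. In control, 99 cells (17.3%) had a Cxcl10 UMI, and the sum of the 31 members was 7354 CPM in them (7184 to 7528) and 2056 in the other 473 (2014 to 2098). In MC38, 139 cells (4.19%) had one, with 2165 CPM (2098 to 2234), and the other 3181 had 768.2 (759.5 to 777.1). Ifit3 was at 295 and 24 CPM in the control cells with and without Cxcl10, and at 35.5 and 2.77 in the MC38 cells. The intervals of MC38 cells with Cxcl10 and of control cells without it met at 2098 CPM. The median depth of the 4 groups ran from 9205 to 12128 UMIs and was higher in MC38.

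Counted per cell, the same cells had a median of 34.5 summed member UMIs in control and 11 in MC38. With each cell thinned to 1000 UMIs, the medians were 4 and 1, and 8.47% of control cells (6.31 to 11.1) had no member UMI against 37.4% of MC38 cells (35.7 to 39.1). Without thinning those shares were 0% (0 of 572 cells, exact interval up to 0.643%) and 0.783%. The mast- or basophil-like cells, the class with the lowest sums in control, had none in 68% and 76.1% of thinned cells, at median depths of 3785 and 3379 UMIs. Thinned control monocytes had a mean of 3.4 members detected and MC38 monocytes 1.09. The top 10% of cells by member UMIs held 42.1% and 41.1% of them.

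**Figure D2:**
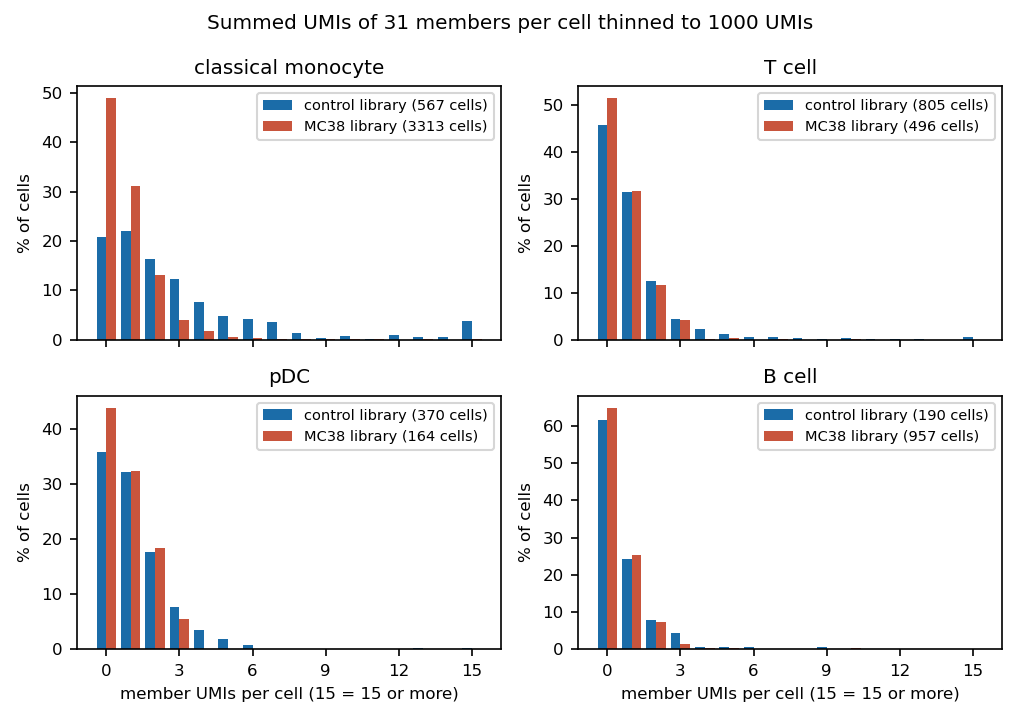
Share of cells (vertical axis, %) by summed UMIs of 31 members per cell, after each cell was thinned to 1000 UMIs, with 15 standing for 15 or more; control bars are blue and MC38 bars red. In the classical monocyte panel 20.8% of control and 49% of MC38 cells are at 0, while the T cell, pDC and B cell panels differ less at 0.

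Beyond monocytes, the plot of differences by class shows values below 0 for most members in every class with at least 100 cells in each library, with the size depending on the class. Mx1 and Irf7 were lower in 7 of the 7 classes. Ifit1, Isg15, Cmpk2, Ifi27l2a, Xaf1 and Trim30a were lower in 6, whereas Irf9, Stat2 and Isg20 were lower in 2, and Oas2 in 2 of the 4 classes where it had at least 10 UMIs. Without the barcode with most member UMIs of each library, an alternative added after seeing the data, Irf7 and Isg15 in B-cell-like cells, Cmpk2 in cDC2-like cells and Isg20 in cDC1-like cells were no longer counted as lower.

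**Figure D3:**
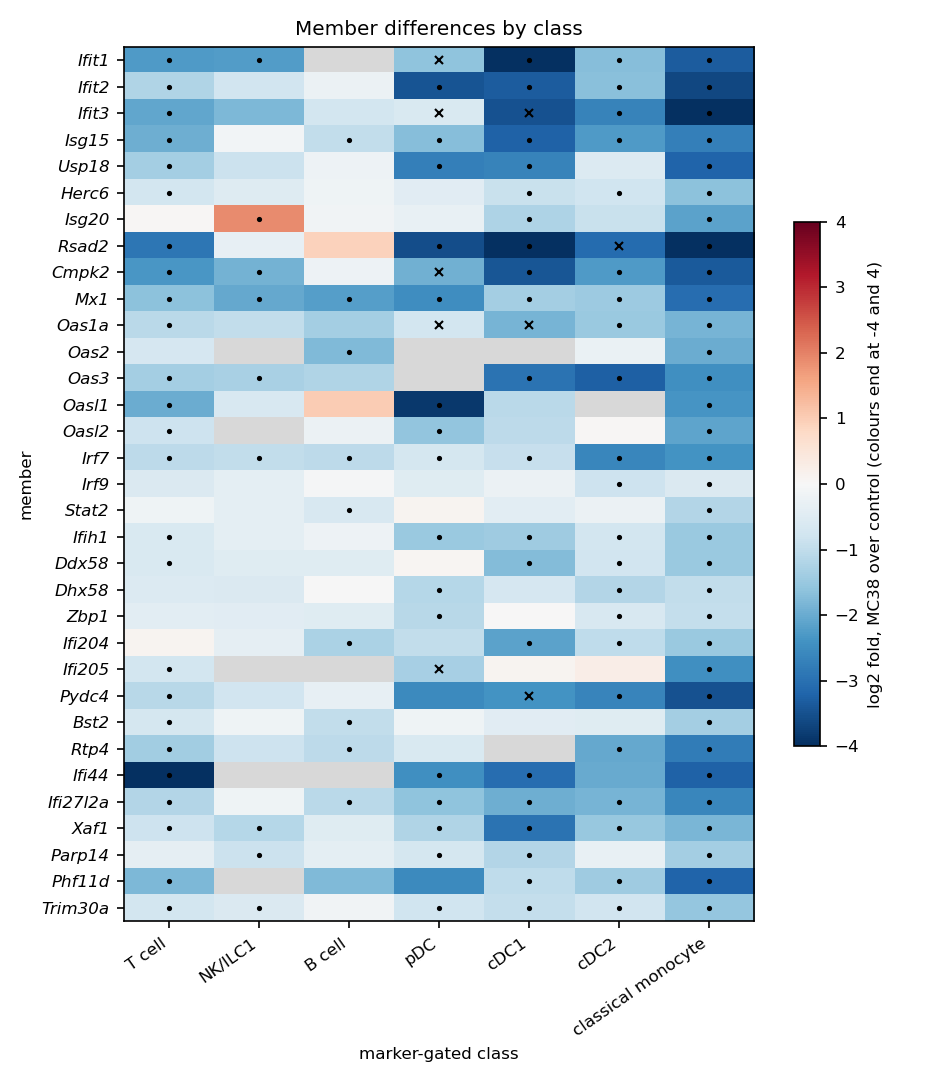
Log2 difference of MC38 to control for each member (rows) in each marker-gated class with at least 100 cells per library (columns). Dots mark values past 1.5-fold whose interval leaves out no difference, crosses mark such genes without a UMI in the MC38 library (drawn at a floor of 3 UMIs), and grey cells had under 10 UMIs; the classical monocyte column is blue throughout and Isg20 in NK or ILC1 cells is the only red cell with a dot.

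In T-cell-like cells 25 of 33 members were lower and none higher (806 and 497 cells), where 6.87% of all genes were lower and 11% higher. The median was −1.06, against 0.00 over all genes. Rsad2 was at 15.5 and 2.11 CPM (−2.88, −3.98 to −1.96), Ifit1 at 44.5 and 9.27 (−2.26), Isg15 at 98.2 and 25.3 (−1.96) and Irf7 at 63.3 and 30.3 (−1.06). Ifi44, a GTP-binding antiviral protein, had 34 UMIs in control and 1 in MC38 (−4.31, −9.66 to −1.74). Stat2 (−0.16, −0.47 to 0.15), Isg20 (0.05, −0.26 to 0.36) and Ifi204 (0.12, −0.16 to 0.39) were not counted as lower or higher.

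Among T-cell-like cells the difference varied by cluster. The sum without Ifi27l2a and Bst2 was 1260 and 665.4 CPM in the cluster led by Ccl1, Cxcr6 and Cd3d, and 755.7 and 445 in the cycling cluster led by Hist1h1b and Top2a. In the cluster led by Dapl1, Lef1 and Tcf7, genes typical of naive T cells, it was 757.3 (704.5 to 812.9) and 655.3 (592.3 to 723.2). These intervals overlap, which does not show the libraries to be level, and no interval of the ratio was computed for clusters. In the cluster whose leading genes join Cd3d with the myeloid Cd209a the sum was 1689 and 793.2 CPM. That cluster held 129 control (16%) and 116 MC38 (23.3%) T-cell-like cells, and its part in the class result was not tested. In T-cell-like cells macrophage markers summed to 132 CPM in control and 1385 in MC38, and the median cell had 0 in both. With a gate that asked for 3 more markers than of any other class (580 and 256 cells), 20 members were lower and the median was −0.94. The control T cells also held more of their member UMIs in few cells, 49.9% in the top 10% of cells against 38.7% (47.8% and 45.4% at the 30% limit), and thinned cells reached 44 and 11 member UMIs at most. In the other pathway lists the receptor and kinase genes Ifnar1, Ifnar2, Jak1 and Tyk2 lay between −0.09 and −0.04. Of 5 negative regulators 1 was higher and 1 was lower. Socs3, which restrains cytokine receptors, was higher at 24.5 and 77.1 CPM (1.65), and Pias1 was lower at 46 and 30.1 (−0.61). The part of macrophage RNA in these values was not tested.

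pDC-like cells, specialised producers of type I interferon, had 21 of 31 members lower and none higher (371 and 164 cells; 4.81% of all genes lower and 5.88% higher), with a median of −1.20 against −0.03. Bst2, also a pDC marker, made up 63.7% of the summed UMIs in control and 77.2% in MC38 and differed little, at 3734 and 3323 CPM (−0.17, −0.22 to −0.12). Irf7, which pDC hold at a high resting level, was at 223 and 138 CPM (−0.69). Stat2 was at 112 and 122 CPM (0.12, −0.16 to 0.40). The effectors differed most: Usp18 was at 55.6 and 8.44 CPM (−2.72), Ifi44 at 55 and 9.97 (−2.46) and Mx1 at 34.5 and 6.14 (−2.49). Ifit1, Ifit3, Cmpk2 and Oas1a had no UMI in the MC38 pDC-like cells and 22, 11, 27 and 12 in control. With 0 set to 3 UMIs over the class they were 3.05-, 1.53-, 3.75- and 1.67-fold lower, without allowance for counting error. Macrophage markers summed to 30.7 CPM in control and 308 in MC38 cells and hepatocyte markers to 49.8 and 228, and their part in the result was not tested.

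The conventional dendritic cells differed by similar amounts. In cDC1-like cells, which cross-present antigen to CD8 T cells, 23 of 31 members were lower and none higher (135 and 112 cells; 7.89% of all genes lower and 5.78% higher; median −1.42 against −0.07). Isg15 was at 104 and 11.2 CPM (−3.22, −4.0 to −2.52) and Xaf1, a pro-apoptotic factor, at 33.5 and 4.35 (−2.94). Ifit3 had 41 and 0 UMIs, 11.3-fold lower with 0 set to 3 UMIs. The control level of Ifit3 was 21.1 CPM, and 11.9 without the barcode with most member UMIs. Ifi205 was at 243 and 263 CPM, above its level in the other classes with at least 50 cells in that library, and the libraries were within 1.5-fold (0.11, −0.08 to 0.31). Zbp1 was at 44.3 and 44.8 CPM. A cluster led by Mpo, Elane and Ctsg, known from granulocyte progenitors, made up 24.4% of control cDC1-like cells and 20.5% of those from MC38, and the sum of the 31 members was 923 and 705.6 CPM in it, against 1782 and 870.5 in the cluster led by Xcr1, Sept3 and Clec9a. The top 10% of the thinned control cells held 57.1% of the member UMIs, against 37.4% in MC38.

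In cDC2-like cells 23 of 32 members were lower and none higher (149 and 114 cells; 7.18% of all genes lower; median −1.30 against 0.00). Irf7 had its largest difference here, 65.8 and 10.7 CPM (−2.62, −3.51 to −1.84). Oas3 was at 41 and 4.28 CPM (−3.26) and Rtp4 at 62.4 and 15 (−2.06). Rsad2 had 31 and 0 UMIs, 8.38-fold lower with 0 set to 3 UMIs. Oasl2 was level at 63.5 and 66.3 CPM (0.06). Of 15 interferon gamma targets in these cells 2 were lower and 5 higher, where 8.37% of all genes were higher. NK or ILC1 markers summed to 23.1 CPM in control and 145 in MC38 cells.

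At the 10% limit the medians nearest 0 were those of NK- or ILC1-like and B-cell-like cells. In B-cell-like cells 9 of 30 members were lower and none higher (192 and 965 cells; 7.53% of all genes lower; median −0.47 against −0.05). Ifi27l2a was at 511 and 239 CPM (−1.09), Bst2 at 133 and 67.3 (−0.98), Irf7 at 29.2 and 14 (−1.06) and Isg15 at 24.5 and 12.4 (−0.99). Without the top barcode of each library 6 were lower, with Irf7 at −0.71 (−1.43 to 0.06) and Isg15 at −0.37 (−1.22 to 0.56). Ifit1 had 1 and 3 UMIs in these cells, too few to compare. Oasl1 (1.0, −0.25 to 2.52) and Rsad2 (0.92, −1.22 to 4.11) had wide intervals. Of 14 interferon gamma targets 5 were higher and none lower, where 5.44% of all genes were higher. Erythroid markers summed to 18.8 CPM in control and 5324 in MC38 B-cell-like cells, with medians of 0. With UMIs of other cell types' markers left out of the total the count was again 9. That setting changes only the total, and the part of erythroid RNA in the member UMIs was not tested. The median ratio used for scaling was −0.12 on the log2 scale in this class. With it taken out, the member median was −0.35 and 7 members were lower.

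In NK- or ILC1-like cells 8 of 28 members were lower (323 and 206 cells; 5.82% of all genes lower; median −0.62 against −0.04), among them Mx1 (17.7 and 4.25 CPM, −2.06), Xaf1 (45 and 20.4, −1.14) and Parp14 (114 and 62.8, −0.86). Isg15 was level at 35.5 and 33.1 CPM (−0.10, −0.72 to 0.51). Isg20, a 3′ to 5′ exonuclease, was the only member higher in any of the 7 classes, where 6.82% of all genes were higher in these cells. It had 9 UMIs in control and 23 in MC38, at 5.32 and 19.5 CPM (1.88, 0.71 to 3.17). Isg20 was lower in classical-monocyte-like cells (39 and 8.88 CPM). The NK- or ILC1-like count rests on the cell limits: at a mitochondrial limit of 5% (63 and 89 cells) no member was lower, and with a margin of 3 markers (200 and 91 cells) 3 were.

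The wider limit of 30% took T-cell-like cells from 806 to 3335 in control and from 497 to 716 in MC38, and brought 4 more classes above 100 cells per library. In macrophage-like cells 29 of 33 members were lower (119 and 556 cells; 9.45% of all genes lower and 7.56% higher; median −1.46), with Irf7 at 175 and 41.2 CPM (−2.08) and Ifi44 at 54.6 and 0.982 (−5.80). The macrophage-like cells had median depths of 1357 UMIs in control and 4663 in MC38, and median mitochondrial shares of 17.6% and 7.07%. Kupffer markers summed to 1698 CPM in control and 577 in MC38 cells, classical monocyte markers to 899 and 2509 and T cell markers to 563 and 113. The part of these differences in the result was not tested. Kupffer-like cells (macrophages resident in the liver sinusoids) differed less, with 10 of 33 lower (241 and 291 cells; 9.5% of all genes lower and 9.46% higher; median −0.55). In them Ifit1 was at 80.4 and 10.4 CPM (−2.96), but at 28.3 in control without the barcode with most member UMIs, and Irf7 at 339 and 198 (−0.78), while Bst2 was at 339 and 298 (−0.19, −0.45 to 0.08). Leaving out the top barcode of each library gave 9 members lower and 1 higher in Kupffer-like cells. The higher one was Usp18, with 3 and 22 UMIs (2.14, 0.41 to 4.53). In hepatocyte-like barcodes 22 of 31 were lower (249 and 5590 cells; 13.6% of all genes lower and 7.05% higher; median −1.79 against −0.24). A single control barcode held 24.9% of the control member UMIs there, and without the top barcode of each library 19 were lower and the median was −1.41. The hepatocyte clusters also split by library: the cluster led by Car3, Inmt and Sult2a8 had 86 control and 0 MC38 cells, and the cluster led by Orm1, Nnmt and Pck1 had 1 and 2227. In mast- or basophil-like cells 5 of 19 were lower and none higher (137 and 170 cells; 7.68% of all genes lower and 7.16% higher; median −0.67), and without the top barcodes 2 of 17 were lower and 2 higher. The 7 earlier classes had medians of −2.27 (classical monocyte, 32 lower), −1.38 (cDC1, 23), −1.35 (pDC, 23), −1.26 (cDC2, 26), −0.93 (NK or ILC1, 15), −0.92 (T cell, 22) and −0.58 (B cell, 14) at this limit, where the shares of all genes lower were 11.3%, 5.62%, 4.43%, 7.2%, 4.77%, 5.6% and 5.06%. The shares of all genes higher were 11.1%, 7.14%, 6.44%, 8.8%, 8.48%, 15.3% and 8.22% in the same order, and Isg20 in NK- or ILC1-like cells was the 1 member higher (1.04), which ended without the top barcode of each library (0.80, −0.02 to 1.60).

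The share of mitochondrial UMIs, a sign of damaged cells, differed between libraries, with a median of 7.15% in kept control and 5.12% in kept MC38 cells, so levels were also read within bins of it. In classical-monocyte-like cells the sum without Ifi27l2a and Bst2 was 3388 and 882.3 CPM at 0 to 5%, 2815 and 776.6 at 5 to 10%, 2724 and 763.5 at 10 to 20%, and 2550 and 671.8 at 20 to 30%. The control value was higher in each bin. T-cell-like cells had 1103 and 687.4 CPM in the lowest bin and 1244 and 696.4 in the next. NK- or ILC1-like cells were not ordered in one way: 631 (548.5 to 722.3) and 658.9 (586.4 to 738) at 0 to 5%, but 838.1 and 422.7 at 5 to 10%. Kupffer-like cells had 1258 (1072 to 1466) and 1458 (1334 to 1590) at 5 to 10%, and 3191 and 1491 at 10 to 20%.

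**Figure D4:**
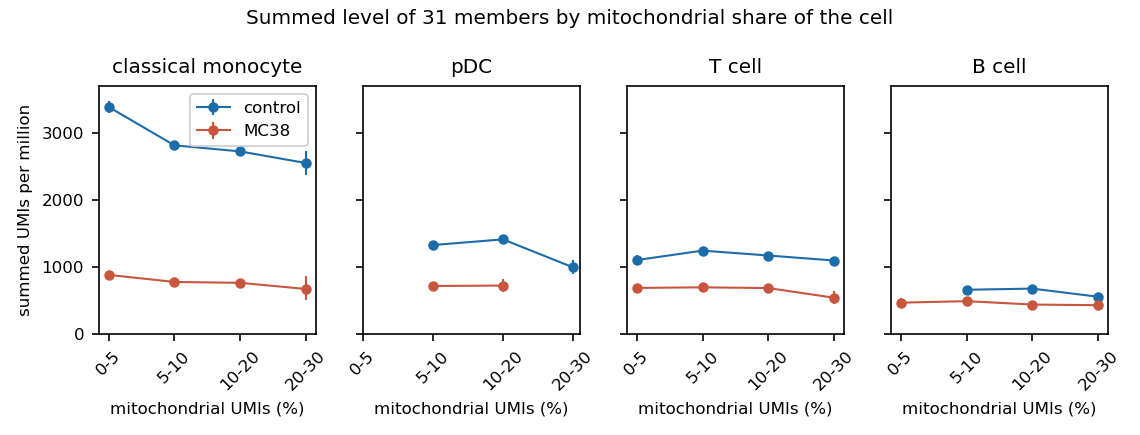
Summed level of 31 members (vertical axis, CPM, from 0) in 4 classes by the mitochondrial share of the cell (horizontal axis, %), with exact 95% counting intervals; bins with under 20 cells are left out. In the classical monocyte, pDC, T cell and B cell panels the control line lies above the MC38 line in every bin drawn for both.

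Across classes the order of levels depended on which genes were summed. With all 33 members, control pDC-like cells (5861 CPM, 5776 to 5946) were above classical-monocyte-like cells (4821), nonclassical-monocyte-like (3027), cDC2-like (2298), T-cell-like (2174), hepatocyte-like (1965, or 948.4 without that library's top barcode), cDC1-like (1846), B-cell-like (1304), NK- or ILC1-like (886) and mast- or basophil-like cells (685.9). The intervals of the cDC2-like and T-cell-like cells (2227 to 2370 and 2142 to 2207) did not overlap, whereas those of hepatocyte-like cells (1737 to 2215) overlapped both T-cell-like and cDC1-like cells (1786 to 1907). Without Ifi27l2a and Bst2, classical-monocyte-like cells led with 2970 CPM and pDC-like cells had 1323.

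**Figure D5:**
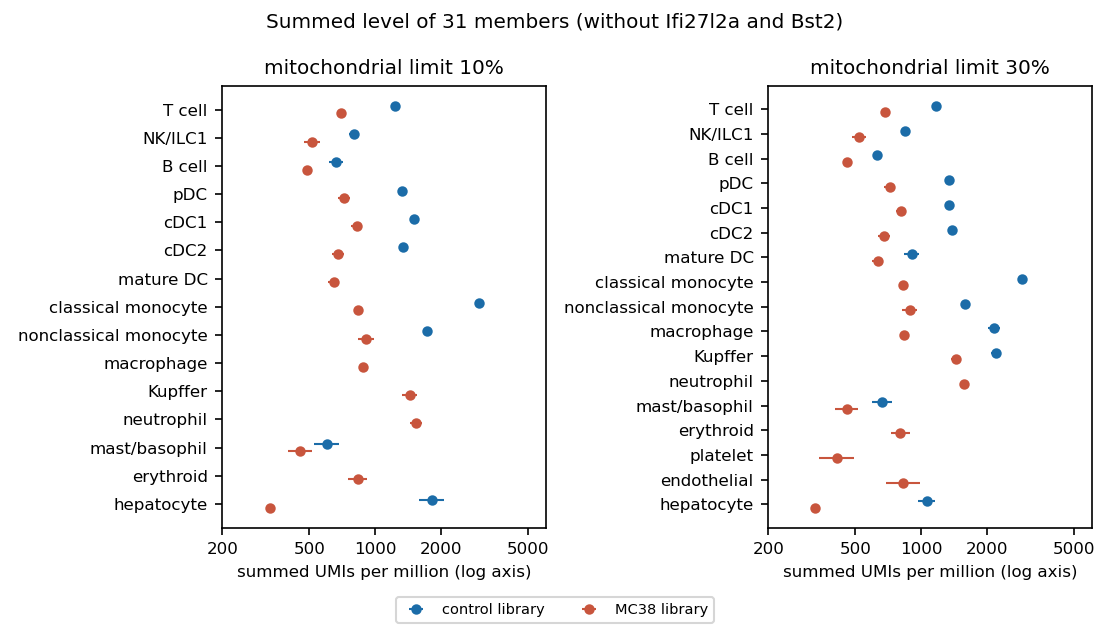
Summed level of 31 members (horizontal log axis, CPM, with exact 95% counting intervals) in each class with at least 50 cells, in the control (blue) and MC38 (red) libraries at mitochondrial limits of 10% and 30%. Classical-monocyte-like cells are highest in control (2970 at the 10% limit), and neutrophil-like and Kupffer-like cells are highest in MC38 (1533 and 1437).

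Gene by gene, classical-monocyte-like cells were highest for 18 members in control, 9 of them with an interval apart from the next class. Hepatocyte-like barcodes were highest for 6, among them Isg15 at 667 CPM, but 1 of the 69 barcodes held 55.2% of their member UMIs. Without the top barcode of each class Isg15 was at 134 CPM there, and hepatocyte-like barcodes were highest for 1 member and classical-monocyte-like cells for 23. pDC-like cells were highest for 5, among them Bst2, Trim30a and Ifi44 with intervals apart. In the MC38 library no class led so often: Kupffer-like cells (84 cells) were highest for 13 members, 1 with an interval apart, and neutrophil-like cells for 7. Oasl2 reached 421 CPM (374 to 473) in the 245 neutrophil-like cells, 25% of their member UMIs, and Oas3 101 CPM. Herc6 and Mx1 were highest in the 202 mature-dendritic-cell-like cells of the MC38 library, at 72.7 and 45.7 CPM. Too few control neutrophil-like and mature-dendritic-cell-like cells passed the 10% limit for a level.

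Nonclassical-monocyte-like cells, the patrolling monocytes of the vessels, had 161 control but only 60 MC38 cells, too few for a ratio by the limit used. The cells differed in makeup: 64% of the control cells but 10% of the MC38 cells were in the nonclassical monocyte clusters, and 68.3% of the MC38 cells were in unnamed clusters. Nonclassical monocyte markers summed to 2158 CPM in control and 1028 in MC38, classical monocyte markers to 1611 and 3730, macrophage markers to 160 and 1527, and neutrophil markers to 7272 and 84. Their part in the levels was not tested. The summed member level was 3027 CPM (2944 to 3113) and 1283 (1196 to 1375), and Ifi27l2a alone was at 1148 and 269. Isg15 was at 76.1 and 15.8 CPM and Irf7 at 117 and 36.4. Several members have near-identical relatives (the Ifit, Oas, p200, Phf11 and Trim30 families), and how shared reads were counted is unknown from the sources used here, so single values in those families are less certain.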

How the data were processed

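Per the matrix headers, the deposited values are raw UMI counts per gene and barcode. The submitters' processing notes name GRCm38.p6, Cell Ranger 2.2, STAR, Seurat 2.3.4, R 3.6.0 and bcl2fastq, and the matrix header gives software 3.0.2; the sources used here do not give their roles. Barcodes with at least 200 genes, at most 10% (or 30%) of UMIs from 13 mitochondrial genes and no doublet call (617 control and 1727 MC38 barcodes, expected rate 0.008 per 1000 cells) were kept. A class needed at least 3 of its 6 markers and at least 1 more than any other class, a rule chosen after seeing the data. Clusters (scanpy 1.11.5, leidenalg 0.10.2) used 2000 variable genes, 30 components and 15 neighbours. Counts were summed per class and library. Ratios needed 100 cells per library and 10 UMIs, levels 50 cells, and a count of 0 was set to 3 UMIs for folds and medians. Intervals are exact (Poisson, conditional binomial for ratios, Clopper-Pearson for shares; scipy 1.17.1). The ratio script was tested on simulated data. Members and lists were chosen with earlier results of these data known. All members could be named, with full values for the 2 to 6 members of each role with most UMIs, plus ligands with any UMI, receptor and kinase genes, and the 3 genes of each other list with the largest change in each direction in the classical monocyte and T cell classes; other members named in single classes were chosen after their values were seen. Gene positions come from GENCODE M21. Alternatives covered the mitochondrial limit, gene minimum, gate, clustering, doublets, UMI minimum, scaling, cell weights, thinning and leaving out the barcode with most member UMIs. The result of 1 gene of the pathway lists is not reported here.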

Additional observations from a re-analysis of the deposited data

Results flagged for a closer look

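Isg20 differed in opposite directions between classes. In NK- or ILC1-like cells it was higher in the MC38 library by 1.88 on the log2 scale (0.71 to 3.17), from 9 control and 23 MC38 UMIs, and in classical-monocyte-like cells it was lower, at −2.13 (−2.38 to −1.88). The difference between the classes was not tested. At the 30% mitochondrial limit the NK- or ILC1-like value was 1.04 (0.27 to 1.79). Without the barcode with most member UMIs of each library it was 0.80 (−0.02 to 1.60) at that limit and no longer counted as higher. At the 10% limit 1 of 28 members was higher in NK- or ILC1-like cells, where 6.82% of all genes were higher. The count of members higher stayed at 1 without those barcodes.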

How the results depend on the processing

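Of 164 values recomputed under another setting, 2 reversed, and 12 moved by over 1.5 times (counts) or out of their interval. Among the other 150 some medians still shifted by over 1.5 times: NK- or ILC1-like from −0.62 to −0.35 and cDC1-like from −1.42 to −2.39 at the 5% mitochondrial limit, pDC-like from −1.20 to −0.69 with classes from clustering, and cDC2-like from −1.30 to −0.82 among members with at least 50 UMIs. The cause was not tested. At a mitochondrial limit of 5% the members lower were 15 in T-cell-like and 0 in NK- or ILC1-like cells, and B-cell-like and pDC-like cells gave no value. At 30% they were 15 in NK- or ILC1-like and 14 in B-cell-like cells. Counting members with at least 50 UMIs left 4 in NK- or ILC1-like and 13 in cDC1-like cells, since fewer genes were counted. With a gate margin of 3 markers, added after seeing the data, they were 3 in NK- or ILC1-like, 4 in B-cell-like, 15 in cDC1-like and 14 in cDC2-like cells, from fewer cells. The log2 ratio of classical monocytes to pDC in the summed level reversed without Ifi27l2a and Bst2, from −0.28 to 1.17 in control and from −1.85 to 0.21 in MC38. The per-cell median ratio in classical monocytes moved from 0.319 to 0.25 with cells thinned to 1000 or to 2000 UMIs. The median in classical-monocyte-like cells stayed between −2.42 and −2.27, with 31 to 33 members lower. Few UMIs limit single members in the NK- or ILC1-like and B-cell-like classes. No paired analysis was possible because each group has 1 library.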

Other observations

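Erythroid-like cells of the MC38 library (90 cells) held a narrow set of members. Isg20 was at 308 CPM, Rsad2 at 254 and Isg15 at 171, which made up 33.5%, 27.6% and 18.7% of their member UMIs, and each was the highest of the 15 classes with a level in that library. Ifit1, Ifit2, Ifit3 and Mx1 had 0 UMIs in the same cells. In the control library Isg20 was highest in mast- or basophil-like cells, at 68.9 CPM, and lowest in NK- or ILC1-like cells, at 5.32.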
